A study of Homo sapiens with 15 samples.

Results

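The insulin-like growth factor (IGF) system was followed here through 10 genes: the binding protein genes IGFBP2, IGFBP3, IGFBP4, IGFBP5, IGFBP6 and IGFBP7, the receptor genes IGF1R and IGF2R, and the adaptor genes IRS1 and IRS2. They were chosen by symbol, with earlier results of these data known. Among the probe sets annotated to a symbol alone, the brightest on average over the arrays stands for the gene. These 10 genes are among 11963 genes measured on 15 Affymetrix arrays of MCF-10A, an immortalised, non-tumorigenic human breast epithelial cell line. RNA was taken 48 hours after infection with a retrovirus or an adenovirus, and the labels do not say which virus served which set of samples.

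In the knockdown arm, 2 cultures carried shDBD, a short hairpin RNA directed at all isoforms of the transcription factor p63, 2 carried shTA, directed at the isoforms that contain the transactivating (TA) domain, and 2 carried the shRNA vector. In the overexpression arm, 3 cultures expressed ΔNp63α, the isoform without the TA domain that predominates in basal epithelium, 3 expressed TAp63γ, an isoform with that domain, and 3 carried the overexpression vector. The labels name no clone and call the replicates biological without saying that each came from its own infection, so p-values measure only the spread between these arrays, which may be technical. The level of the p63 transcript was not analysed here, so the size of the knockdown or overexpression is not given.

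IGF-I and IGF-II bind the tyrosine kinase receptor encoded by IGF1R. The activated receptor phosphorylates the docking proteins IRS1 and IRS2, which recruit phosphoinositide 3-kinase (PI3K) and thereby activate AKT. The product of IGF2R, the cation-independent mannose 6-phosphate receptor, has no kinase domain and carries IGF-II to lysosomes for degradation. The high-affinity binding proteins hold IGFs away from their receptor or deliver them to it, and in the mammary gland they are secreted by epithelial and stromal cells. MCF-10A is usually grown with insulin, which at high concentration also acts on the IGF-I receptor.

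All values are log2 expression, as the authors deposited them after robust multi-array averaging (RMA), and a difference of 1 on this scale is a change of 2-fold. A gene was called higher or lower where limma's moderated test gave a Benjamini-Hochberg adjusted p under 0.05 over all 11963 genes of a comparison. The knockdown and overexpression arms were compared only within themselves, because the sources used here do not say whether they were normalised together. Knockdown arrays had medians of 7.29 to 7.32 and overexpression arrays of 7.08 to 7.12, and the number of arrays limits the precision of every value. Replicates correlated over genes at 0.9977 to 0.998 on knockdown arrays, against 0.9925 to 0.998 on overexpression arrays. Pairs of replicates had exactly the same value for 17 to 22 genes on knockdown arrays and for 250 to 464 genes on overexpression arrays. The cause of this difference was not tested, and the spread of each gene was estimated over both arms. The array of ΔNp63α replicate 3 correlated least with its replicates, at 0.992 and 0.994, and had the highest signal of the 3′ over the 5′ GAPDH control probe sets in its arm (0.141 on the log2 scale, against -0.0657 to 0.0368 on the other arrays). The same 3′ over 5′ difference for the actin control probe sets averaged 0.0668 ± 0.0262 in shDBD cells, 0.102 ± 0.14 in shTA cells and -0.0868 ± 0.00982 in shRNA vector cells (SD, n = 2 each). In the overexpression arm the actin difference averaged 0.162 ± 0.0594 in ΔNp63α cells, 0.0772 ± 0.0663 in TAp63γ cells and 0.17 ± 0.0578 in vector cells (SD, n = 3 each). The part of RNA quality in the results below was not tested.

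The label of the cells was checked against markers. All 9 measured epithelial markers, among them KRT5, KRT14, CDH1 and EPCAM, lay above the 20th percentile in every group, with a median percentile of 95.7 to 96.7. Here and below, the 20th percentile used as a floor is that of all probe sets with 1 symbol on an array. The other percentiles given are ranks among the 11963 genes, so the scales differ somewhat. Fibroblast markers had a median percentile of 27.2 to 32.4, with 5 of 7 above the 20th percentile, and their least abundant gene lay below percentile 1 in every group. The summed log2 level of the 7 fibroblast markers was 43.6 to 44.3 in shDBD cells, 43.5 to 44.3 in shTA cells and 43.9 in both shRNA vector cultures, and 41.0 to 41.3 in ΔNp63α cells, 40.5 to 41.2 in TAp63γ cells and 40.7 to 41.0 in overexpression vector cells. Of 7 endothelial and adipocyte markers, 2 were called higher with shDBD, 0 with shTA and 1 with each isoform against the vector, and their summed level was 40.3 in both shDBD cultures, 39.9 in both shTA cultures and 39.4 to 39.9 in shRNA vector cells. Of the 5 immune markers, 0 were called against a vector, and between the isoforms 1 immune, 1 fibroblast and 2 endothelial or adipocyte markers were higher with ΔNp63α. Of the 9 epithelial markers, 1 was higher and 3 lower with shDBD, 0 higher and 2 lower with shTA, 3 higher and 4 lower with ΔNp63α, and 5 higher and 3 lower with TAp63γ. Beside these marker counts, 21.3% of all genes were called with shDBD, 2.29% with shTA, 28.9% with ΔNp63α, 43.4% with TAp63γ and 39.8% between the isoforms. The part of these markers in the results was not tested. In bulk RNA such as this, fewer cells of a type and less RNA per cell cannot be told apart. All 10 genes of the IGF system lay above the 20th percentile of their array on all 15 arrays. This does not by itself show expression, as 4 of the 5 immune markers did so in shRNA vector cells and 3 in overexpression vector cells. In shRNA vector cells CD3D averaged percentile 23.4 and CD79A 45.8. There IRS1 averaged 24.8, IGFBP3 28.9, IGFBP4 40.7 and IGFBP5 45.9, and the other genes of the system stood higher, from 65.8 for IGFBP2.

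Of the 10 genes, 8 were called in at least 1 of the 6 comparisons, as were 61.2% of all genes. Against the shRNA vector, shDBD cells had IRS1 higher and IGFBP2, IGFBP6 and IGFBP7 lower, 4 of 10 genes, in a comparison where 21.3% of all genes were called, 11.1% higher and 10.2% lower. In shTA cells IGFBP6 and IGFBP7 were lower and no gene of the 10 was higher, against 2.29% of all genes called, 1.44% higher and 0.853% lower. Between the hairpins, IRS1 and IRS2 were higher and IGFBP2 and IGFBP7 lower in shDBD than in shTA cells, where 18.4% of all genes were called, 9.14% higher and 9.23% lower. ΔNp63α cells had IGFBP2, IGFBP3, IGFBP6 and IRS1 higher and IGF2R and IRS2 lower than their vector, 6 of 10 genes against 28.9% of all genes, 12.3% higher and 16.6% lower. TAp63γ cells had IGFBP2, IGFBP3, IGFBP7 and IGF1R higher and IRS1 lower, 5 of 10 genes against 43.4% of all genes, 20.5% higher and 22.8% lower. ΔNp63α and TAp63γ cells differed in 6 of the 10 genes, with IGFBP6 and IRS1 higher and IGFBP3, IGFBP7, IGF1R and IGF2R lower in ΔNp63α cells, against 39.8% of all genes, 19.2% higher and 20.6% lower.

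The count with TAp63γ stood near the share of all genes called, and the other counts are given as a description of these 10 genes. The 10 were chosen with earlier results of these data known, and all genes include those at the lowest levels. Neither the counts nor the medians below are therefore a test of the group. The median absolute log2 change over the 10 genes was 0.26 for shDBD, 0.14 for shTA, 0.38 for ΔNp63α and 0.43 for TAp63γ against the vector, beside 0.14, 0.095, 0.14 and 0.19 over all genes. Between the hairpins it was 0.26, beside 0.13 over all genes, and between the isoforms 0.39, beside 0.18. The arrays of the groups did not overlap for 7, 6, 7, 9, 6 and 7 of the 10 genes in these 6 comparisons, taken in the order of the preceding paragraph, against 61.7%, 50.7%, 60.3%, 36.5%, 49.9% and 45.8% of all genes.

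**Figure D1:**
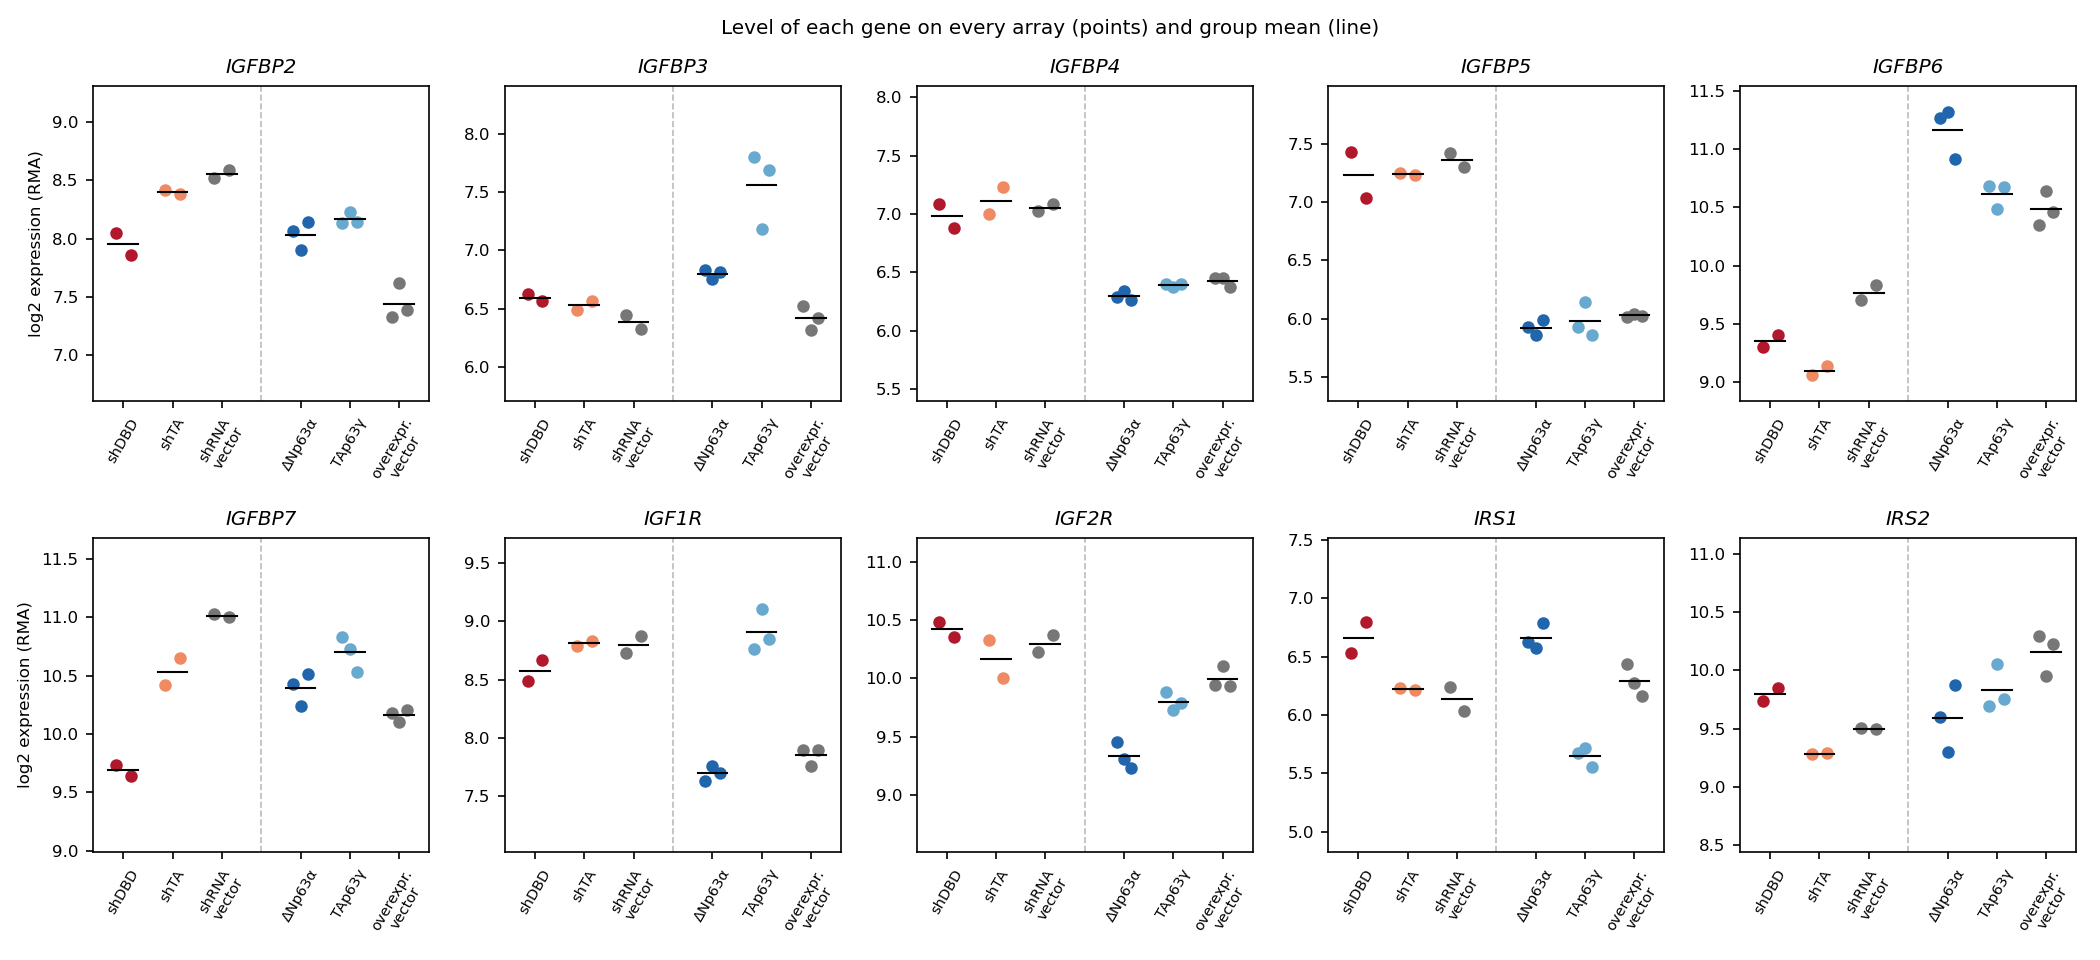
Log2 expression of the 10 genes on every array (points) with the group mean (line), in the order shDBD, shTA and shRNA vector (n = 2 each), then ΔNp63α, TAp63γ and overexpression vector (n = 3 each). The vertical dashed line separates the arms, whose levels are not compared, and each panel has its own range; IGF1R in TAp63γ cells and IGFBP7 in shDBD cells stand away from their vector arrays.

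IGFBP7 was the binding protein gene with the largest fall in shDBD cells. Its product, also named angiomodulin or MAC25, binds insulin and, with low affinity, IGFs, and acts largely outside the IGF axis. IGFBP7 stood at 9.73 and 9.64 in shDBD cells, at 10.42 and 10.65 in shTA cells and at 11.03 and 11.01 in shRNA vector cells. The arrays of the groups did not overlap, and the shTA arrays lay between the others. The fall was -1.33 ± 0.11 with shDBD (SE, 2.51-fold lower, limma adjusted p = 6.31e-07) and -0.48 ± 0.11 with shTA (1.40-fold lower, adjusted p = 0.0394), and shDBD lay below shTA by -0.85 ± 0.11 (adjusted p = 7.49e-05). Leaving out any 1 of 9 arrays, of either arm, ended the call with shTA, with adjusted p between 0.0505 and 0.288.

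In the overexpression arm IGFBP7 was at 10.43, 10.24 and 10.52 in ΔNp63α cells, at 10.84, 10.73 and 10.53 in TAp63γ cells and at 10.18, 10.11 and 10.20 in vector cells. Both isoforms lay above the vector on every array, and the lowest TAp63γ array was next to the highest ΔNp63α array. IGFBP7 rose by 0.54 ± 0.093 with TAp63γ (1.45-fold, adjusted p = 0.00019) and was lower with ΔNp63α than with TAp63γ by -0.30 ± 0.093 (adjusted p = 0.0167). Its difference of 0.23 ± 0.093 between ΔNp63α and vector cells was not called (adjusted p = 0.0762, 95% interval 0.03 to 0.43), but it was called with quantile normalisation (0.0358), with cyclic loess (0.0276) and without ΔNp63α replicate 2 (0.0313). The call between the isoforms was lost without ΔNp63α replicate 2 (adjusted p = 0.0848) or TAp63γ replicate 1 (0.079).

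IGFBP2, which encodes a carrier that is abundant in serum and prefers IGF-II, fell with shDBD and rose with both isoforms. It was at 8.05 and 7.86 in shDBD cells, at 8.42 and 8.38 in shTA cells and at 8.52 and 8.59 in shRNA vector cells. The shDBD arrays were the lowest of this arm. IGFBP2 was lower with shDBD than with the vector by -0.60 ± 0.11 (1.52-fold, adjusted p = 0.000962) and lower than with shTA by -0.45 ± 0.11 (adjusted p = 0.0101). The difference between shTA and vector cells, -0.16 ± 0.11, was not called (adjusted p = 0.631, 95% interval -0.39 to 0.08).

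IGFBP2 was at 8.06, 7.90 and 8.14 in ΔNp63α cells, at 8.13, 8.23 and 8.14 in TAp63γ cells and at 7.32, 7.62 and 7.39 in overexpression vector cells. Every isoform array lay above every vector array, and the 2 isoforms overlapped. The rise was 0.59 ± 0.091 with ΔNp63α (1.51-fold, adjusted p = 0.000131) and 0.72 ± 0.091 with TAp63γ (1.65-fold, adjusted p = 7.83e-06). The isoforms differed by -0.13 ± 0.091, ΔNp63α minus TAp63γ, which was not called (adjusted p = 0.273, 95% interval -0.33 to 0.06). The call between shDBD and shTA was lost without shDBD replicate 2 (adjusted p = 0.115) or shTA replicate 1 (0.0702).

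IGFBP6 encodes the binding protein with the strongest preference for IGF-II over IGF-I. It fell with both hairpins and rose with ΔNp63α. IGFBP6 was at 9.30 and 9.41 in shDBD cells, at 9.06 and 9.14 in shTA cells and at 9.70 and 9.83 in shRNA vector cells. Both hairpins lay below the vector without overlap, and the shTA arrays were the lowest. The fall was -0.41 ± 0.13 with shDBD (1.33-fold, adjusted p = 0.0349) and -0.67 ± 0.13 with shTA (1.59-fold, adjusted p = 0.0128). The hairpins differed by 0.26 ± 0.13, shDBD minus shTA, which was not called (adjusted p = 0.232, 95% interval -0.02 to 0.54). Each call against the vector was lost when any 1 of its own 4 arrays was left out, with adjusted p up to 0.205 for shDBD and 0.141 for shTA, and the shDBD call also without overexpression vector replicate 3 (0.0503).

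With ΔNp63α, IGFBP6 was at 11.27, 11.32 and 10.91, against 10.69, 10.49 and 10.68 with TAp63γ and 10.35, 10.64 and 10.46 with the overexpression vector. All 3 ΔNp63α arrays stood above the other 6 arrays of the arm, and ΔNp63α replicate 3 was the lowest of its group. TAp63γ and vector arrays overlapped. IGFBP6 rose by 0.68 ± 0.11 with ΔNp63α (1.61-fold, adjusted p = 0.000163) and was higher than with TAp63γ by 0.55 ± 0.11 (adjusted p = 0.000706), while TAp63γ differed from the vector by 0.13 ± 0.11 (adjusted p = 0.352). Without ΔNp63α replicate 3 the rise was 0.81 (adjusted p = 6.25e-06).

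IGFBP3, the main carrier of IGFs in serum and a known target of p53, rose with both isoforms and more with TAp63γ. The 250 bases before its RefSeq start (GRCh38.p14, chr7:45921273-45921522, minus strand, 5′ to 3′) are shown because IGFBP3 was the binding protein gene with the largest rise in the overexpression arm. Capitals mark the C and G letters of every pair of CNNG separated by 6 bases, the core letters and spacing of a site of the p53 family, counted with overlaps and identical on both strands.
IGFBP3: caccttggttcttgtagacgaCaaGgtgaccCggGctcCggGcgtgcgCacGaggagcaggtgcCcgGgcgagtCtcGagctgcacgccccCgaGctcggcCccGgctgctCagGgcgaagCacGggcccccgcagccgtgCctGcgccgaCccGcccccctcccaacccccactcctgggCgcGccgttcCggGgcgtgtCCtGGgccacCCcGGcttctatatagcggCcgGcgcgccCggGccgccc
There were 12 such pairs in this window, against a median of 1 over 35116 RefSeq promoters of the same length, and its GC content was 76%, against a median of 58%. The count was not set against GC content, and a pair is a description of letters and not of binding.

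IGFBP3 was at 6.83, 6.75 and 6.82 in ΔNp63α cells, at 7.80, 7.18 and 7.69 in TAp63γ cells and at 6.52, 6.31 and 6.42 in overexpression vector cells. The 3 groups did not overlap, and TAp63γ replicate 2 lay below the other TAp63γ arrays. The rise was 0.38 ± 0.12 with ΔNp63α (1.30-fold, adjusted p = 0.0269) and 1.14 ± 0.12 with TAp63γ (2.20-fold, adjusted p = 1.33e-06). ΔNp63α lay below TAp63γ by -0.76 ± 0.12 (adjusted p = 0.000124). The ΔNp63α call was lost with the arms fitted separately (adjusted p = 0.0718) and without ΔNp63α replicate 1 (0.0687), ΔNp63α replicate 3 (0.0541), overexpression vector replicate 2 (0.0938) or overexpression vector replicate 3 (0.0646).

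A second IGFBP3 probe set gave larger rises, from a low level, and lay above the 20th percentile on 14 of the 15 arrays. In overexpression vector cells it averaged 5.51 and the first probe set 6.42. The immune markers CD3D and CD79A averaged 5.89 and 6.51 there. The second probe set was at 6.47, 6.44 and 6.48 in ΔNp63α cells, at 7.39, 7.41 and 7.24 in TAp63γ cells and at 5.51, 5.39 and 5.62 in vector cells. Its 3 groups did not overlap either. On this probe set the rise was 0.96 ± 0.077 with ΔNp63α (adjusted p = 2.46e-07) and 1.84 ± 0.077 with TAp63γ (adjusted p = 5.3e-11). With the mean over both probe sets the ΔNp63α rise was 0.67. In the knockdown arm IGFBP3 was at 6.62 and 6.56 in shDBD cells, at 6.49 and 6.56 in shTA cells and at 6.44 and 6.32 in shRNA vector cells, with differences from the vector of 0.21 for shDBD (adjusted p = 0.396, 95% interval -0.11 to 0.52) and 0.14 for shTA (adjusted p = 0.775, 95% interval -0.17 to 0.46), neither of them called.

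IGFBP4, whose product inhibits IGF action until the protease PAPPA cleaves it, was not called in any of the 6 comparisons. Knockdown arrays had IGFBP4 at 6.88 to 7.23, and overexpression arrays at 6.27 to 6.46. The difference furthest from 0 against a vector was -0.13 with ΔNp63α (adjusted p = 0.233, 95% interval -0.29 to 0.03), and with shDBD it was -0.07 (95% interval -0.27 to 0.12). IGFBP5, which encodes a carrier that also binds extracellular matrix and rises in the involuting mammary gland of rodents, was not called either. Knockdown arrays had it at 7.03 to 7.43 and overexpression arrays at 5.86 to 6.14, and shDBD cells differed from the vector by -0.13 (95% interval -0.38 to 0.12). An unadjusted p under 0.05 was reached in 0 of 6 comparisons for each of these 2 genes. Another of the 5 IGFBP5 probe sets was called lower with TAp63γ by -0.22 (adjusted p = 0.0258), but it lay below the 20th percentile on all 15 arrays.

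IGFBP2 and IGFBP5 are neighbours on chromosome 2 in the RefSeq gene order, with no protein-coding gene between them. IGFBP2 was called in 4 of the 6 comparisons and IGFBP5 in 0. IGFBP3 lies next to IGFBP1 on chromosome 7. The IGFBP1 probe set lay below the 20th percentile on all 15 arrays, at 3.53 to 3.88, and was not called.

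**Figure D2:**
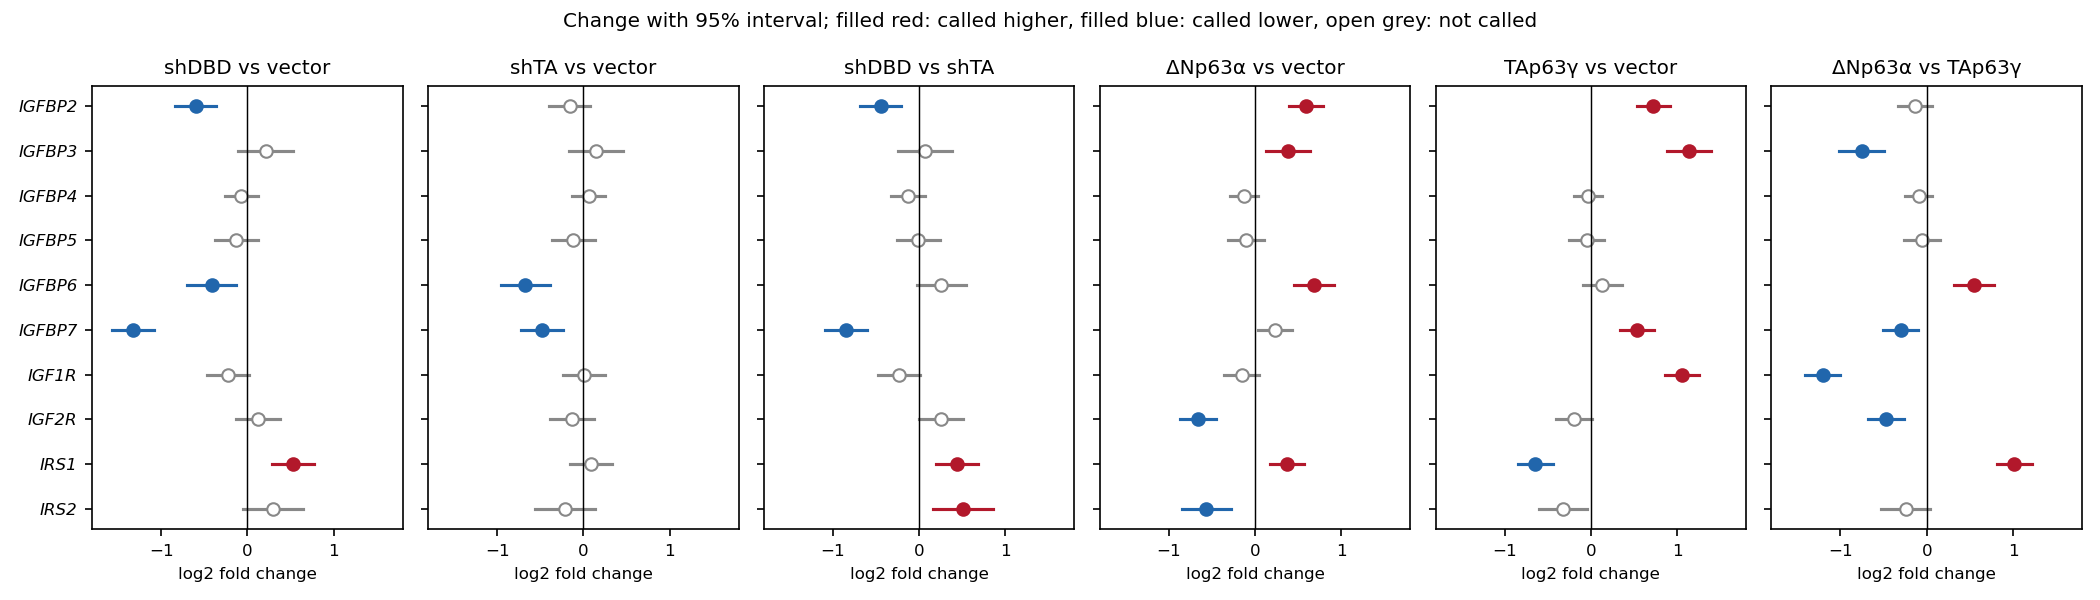
Log2 fold change of each gene with its 95% interval in the 6 comparisons (limma, 9 residual degrees of freedom over 15 arrays); filled red points were called higher, filled blue lower and open grey not called. IGFBP7 lies furthest left with shDBD (-1.33), and IGF1R and IRS1 lie on opposite sides of 0 with TAp63γ and between the isoforms.

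IGF1R rose with TAp63γ, and the difference between the isoforms was called. The 250 bases before its RefSeq start (GRCh38.p14, chr15:98648289-98648538, plus strand) are shown, with the same marking, because this receptor gene had the largest difference between the isoforms among the 10 genes.
IGF1R: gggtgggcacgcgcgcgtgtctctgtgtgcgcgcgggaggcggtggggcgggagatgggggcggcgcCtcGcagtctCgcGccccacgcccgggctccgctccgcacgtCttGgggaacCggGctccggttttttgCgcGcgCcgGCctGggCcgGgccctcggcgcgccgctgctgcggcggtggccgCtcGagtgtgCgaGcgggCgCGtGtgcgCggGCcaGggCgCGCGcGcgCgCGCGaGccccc
This window held 12 pairs and had a GC content of 81.2%.

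IGF1R was at 7.63, 7.76 and 7.70 in ΔNp63α cells, at 8.76, 9.11 and 8.85 in TAp63γ cells and at 7.90, 7.76 and 7.90 in overexpression vector cells. The TAp63γ arrays stood above all others of the arm, while the ΔNp63α and vector arrays overlapped. The rise with TAp63γ was 1.05 ± 0.094 (2.08-fold, adjusted p = 1.87e-07), and ΔNp63α lay below TAp63γ by -1.21 ± 0.094 (2.31-fold, adjusted p = 8.88e-08). ΔNp63α differed from the vector by -0.15 ± 0.094, which was not called (adjusted p = 0.263). A second probe set gave a rise of 0.75 ± 0.11 with TAp63γ (adjusted p = 4.59e-05) and a difference of -0.86 ± 0.11 between the isoforms (adjusted p = 1.88e-05). The third probe set of IGF1R was above the 20th percentile on only 6 arrays, had the opposite sign in both comparisons and was not called, and the mean over all 3 probe sets gave a rise of 0.56 with TAp63γ and a difference of -0.64 between the isoforms.

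In the knockdown arm IGF1R was at 8.49 and 8.67 in shDBD cells, at 8.79 and 8.84 in shTA cells and at 8.73 and 8.88 in shRNA vector cells. The shDBD arrays were the lowest, but the difference of -0.22 ± 0.12 from the vector was not called (adjusted p = 0.211, 95% interval -0.47 to 0.02). For shTA the difference was 0.01 (adjusted p = 0.985).

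IGF2R fell with ΔNp63α. It was at 9.46, 9.31 and 9.23 in ΔNp63α cells, at 9.89, 9.73 and 9.79 in TAp63γ cells and at 9.94, 10.10 and 9.93 in overexpression vector cells. The 3 groups did not overlap, with TAp63γ in the middle. IGF2R was lower with ΔNp63α than with the vector by -0.66 ± 0.097 (1.58-fold, adjusted p = 8.16e-05) and lower than with TAp63γ by -0.47 ± 0.097 (1.38-fold, adjusted p = 0.00107). The difference of -0.19 ± 0.097 between TAp63γ and vector cells was not called (adjusted p = 0.125, 95% interval -0.40 to 0.01). Another probe set of IGF2R was also lower with ΔNp63α than with the vector, by -0.85 ± 0.21 (adjusted p = 0.00662). In the knockdown arm IGF2R was at 10.48 and 10.36 in shDBD cells, at 10.33 and 10.002 in shTA cells and at 10.22 and 10.37 in shRNA vector cells, and no comparison was called there.

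IRS1 encodes the adaptor through which the insulin and IGF-I receptors reach PI3K, and it differed between the isoforms in the direction opposite to IGF1R. The 250 bases before its RefSeq start (GRCh38.p14, chr2:226799821-226800070, minus strand) are shown because IRS1 was the only gene of the 10 called higher with one isoform and lower with the other.
IRS1: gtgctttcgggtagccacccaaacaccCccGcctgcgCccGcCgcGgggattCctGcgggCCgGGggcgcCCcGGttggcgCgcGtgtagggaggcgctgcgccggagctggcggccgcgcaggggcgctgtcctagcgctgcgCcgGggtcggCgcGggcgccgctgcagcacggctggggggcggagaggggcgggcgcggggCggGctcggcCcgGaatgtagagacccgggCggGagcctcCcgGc
This window held 8 pairs and had a GC content of 80.8%.

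IRS1 was at 6.63, 6.57 and 6.79 in ΔNp63α cells, at 5.68, 5.71 and 5.55 in TAp63γ cells and at 6.44, 6.28 and 6.16 in overexpression vector cells. The 3 groups did not overlap, with the vector in the middle. These levels were low, as the immune markers CD3D and CD79A averaged 5.89 and 6.51 in overexpression vector cells. IRS1 rose by 0.37 ± 0.094 with ΔNp63α (1.29-fold, adjusted p = 0.00723) and fell with TAp63γ, at -0.65 ± 0.094 (1.56-fold lower, adjusted p = 3.61e-05). ΔNp63α lay above TAp63γ by 1.02 ± 0.094 (2.02-fold, adjusted p = 5.81e-07).

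With shDBD, IRS1 was at 6.53 and 6.79, against 6.23 and 6.22 with shTA and 6.23 and 6.03 with the shRNA vector. The shDBD arrays lay above the others, and shTA overlapped the vector. IRS1 rose by 0.53 ± 0.12 with shDBD (1.44-fold, adjusted p = 0.00351) and was higher with shDBD than with shTA by 0.44 ± 0.12 (adjusted p = 0.0139). The call against the vector was lost without shDBD replicate 2 (adjusted p = 0.0644) or shRNA vector replicate 2 (0.0564), and the call against shTA without shDBD replicate 2 (0.174), shTA replicate 1 (0.0699) or shTA replicate 2 (0.0768).

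IRS2, the related adaptor that also serves both receptors, fell with ΔNp63α. It was at 9.60, 9.30 and 9.87 in ΔNp63α cells, at 9.70, 10.05 and 9.75 in TAp63γ cells and at 10.30, 9.95 and 10.22 in overexpression vector cells. The ΔNp63α arrays lay below the vector arrays, and TAp63γ overlapped both. IRS2 was lower with ΔNp63α than with the vector by -0.57 ± 0.13 (1.48-fold, adjusted p = 0.00409). TAp63γ differed from the vector by -0.32 ± 0.13, which was not called (adjusted p = 0.0614, 95% interval -0.61 to -0.04). It was called without overexpression vector replicate 2 (adjusted p = 0.0204), ΔNp63α replicate 2 (0.0309), ΔNp63α replicate 3 (0.0223) or TAp63γ replicate 2 (0.0205). Without ΔNp63α replicate 3 IRS2 was also called lower with ΔNp63α than with TAp63γ, by -0.38 (adjusted p = 0.0213).

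In the knockdown arm IRS2 was at 9.74 and 9.85 in shDBD cells, at 9.28 and 9.29 in shTA cells and at 9.50 and 9.50 in shRNA vector cells. The vector arrays lay between the hairpins. Only the difference between the hairpins was called, at 0.51 ± 0.16 (adjusted p = 0.0401), and that call was lost without any 1 of 8 arrays (adjusted p 0.0523 to 0.198), with values below the 20th percentile set to it (0.0524) and with cyclic loess normalisation (0.0681). The second IRS2 probe set was at 8.42 and 8.73 in shDBD cells, at 7.89 and 7.88 in shTA cells and at 8.19 and 8.06 in shRNA vector cells. On this probe set IRS2 was called higher with shDBD than with the vector by 0.45 ± 0.11 (adjusted p = 0.00815) and lower with ΔNp63α than with TAp63γ by -0.35 ± 0.09 (adjusted p = 0.00617), neither of which was called on the probe set that stands for the gene.

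The 10 genes had 21 probe sets in all. Of the 5 genes with a second probe set above the 20th percentile on most arrays and with any call, the second probe set had the same sign wherever the first was called. It was itself called in the same direction in 3 of 3 comparisons for IGFBP3, 4 of 5 for IGFBP7, 2 of 2 for IGF1R, 2 of 2 for IGF2R and 2 of 2 for IRS2. The exception was IGFBP7 with shTA, where the second probe set gave -0.51 ± 0.2 (adjusted p = 0.255). For shDBD the same probe set gave -1.40 ± 0.2 (adjusted p = 0.000104) and for TAp63γ 1.04 ± 0.16 (adjusted p = 6.96e-05).

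**Figure D3:**
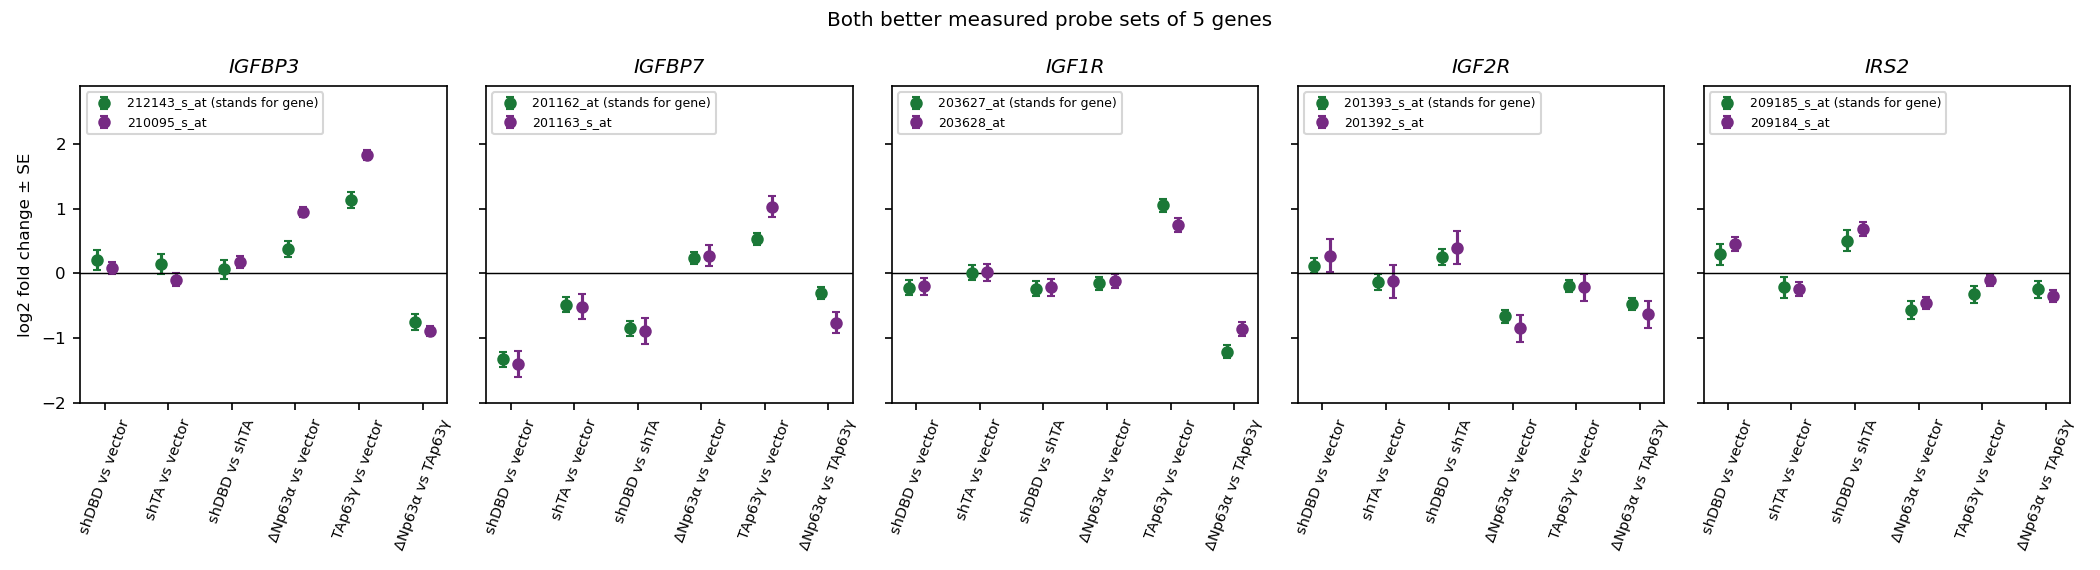
Log2 fold change with its SE (bars) on the probe set that stands for the gene (green) and on a second probe set (purple) for IGFBP3, IGFBP7, IGF1R, IGF2R and IRS2, in the 6 comparisons. Both probe sets lie on the same side of 0 wherever the first was called, and the second lies further from 0 for IGFBP3 and IGFBP7 with TAp63γ (1.84 and 1.04) and nearer to 0 for IGF1R (0.75).

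The knockdown and overexpression arms share no arrays, so a gene's differences in the 2 arms come from separate samples. The calls are not independent, because the arms were fitted together and the spread of a gene was estimated over the arrays of both. IGFBP2 and IGFBP6 were lower with shDBD and higher with ΔNp63α, a combination found in 3.27% of all genes. IGFBP2 and IGFBP7 were lower with shDBD and higher with TAp63γ, as were 3.17% of all genes. IGFBP6 was lower with shTA and higher with ΔNp63α, as were 0.343%, and IGFBP7 lower with shTA and higher with TAp63γ, as were 0.401%. IRS1 was higher with shDBD and also higher with ΔNp63α, as were 1.96% of all genes, and it was lower with TAp63γ, a combination with a rise under shDBD found in 2.53%. IGFBP3, IGF1R and IGF2R were called in the overexpression arm only, where each group had 3 arrays against 2 in the knockdown arm, and no test compared the arms.

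Across the 15 arrays, with each arm's mean subtracted, the pairs among the 10 genes ran from a Pearson r of -0.878 for IGF1R and IRS1 to 0.788 for IGFBP2 and IGFBP7. IGFBP3 and IGF1R reached 0.747, and IGF2R and IRS2 reached 0.609. These points share arrays and group differences, and the values are a description. Among all genes, those with the highest r to IGF1R were PSTPIP2 (0.982), FN1 (0.978), which encodes fibronectin, and RAP2B (0.976). To IRS1 they were TGFBR2 (0.96), which encodes a TGF-β receptor, MMUT (0.951) and SNRPE (0.931). IGF2R had NOC2L (0.939), ELP3 (0.937) and RTN3 (0.932), and IRS2 had PGLS (0.933), MTMR4 (0.907) and PTPRG (0.902).

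Among the binding proteins, IGFBP2 was most like FERMT1 (0.947), which encodes the epithelial integrin adaptor kindlin-1, MAP3K9 (0.945) and BDKRB2 (0.944). IGFBP3 was most like GPX2 (0.959), which encodes a glutathione peroxidase, SLC31A2 (0.951) and MARK4 (0.951). For IGFBP6 the genes were CSNK1E (0.927), RHOBTB2 (0.904) and SPARC (0.868), and for IGFBP7 NECTIN1 (0.939), which encodes an adherens junction protein, DUSP7 (0.93) and MRGBP (0.925). The 2 genes without calls had lower values, IGFBP4 with RAB27B (0.787), NPM3 (0.767) and MC4R (0.749), and IGFBP5 with AVIL (0.738), LHCGR (0.735) and PTPRN (0.731).

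RefSeq promoters were matched for 9 of the 10 genes, all but IGFBP7, with 11 starts in all. The pair of CNNG occurred before 9 of the 11 starts and in 8 of the 9 genes, and in 68.6% of the 35116 promoters. There were 0, 5 and 3 pairs before the 3 IGFBP2 starts, 1 for IGFBP4, 0 for IGFBP5, 1 for IGFBP6, 6 for IGF2R and 2 for IRS2. IGFBP3 and IGF1R had 12 each and IRS1 had 8, as given above. Low counts occurred in genes called and in IGFBP4 and IGFBP5, which were not called, and the counts of 6, 8 and 12 were all in called genes. A relation between counts and calls was not tested. The stricter pair of CATG separated by 6 bases occurred before 0 of the 11 starts and in 0.296% of the promoters, which says only that these letters are not in these windows.

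The rest of the IGF pathway was followed through a list of 91 further genes, of which 77 were measured. Of these 77, 17 were higher and 7 lower with shDBD, 31.2% of the list beside 21.3% of all genes. With shTA 2 were higher and 3 lower, 6.49% beside 2.29%, and with ΔNp63α 10 were higher and 18 lower, 36.4% beside 28.9%. With TAp63γ 17 were higher and 22 lower, 50.6% beside 43.4%. Between the hairpins 11 were higher and 6 lower with shDBD, 22.1% beside 18.4%, and between the isoforms 22 were higher and 14 lower with ΔNp63α, 46.8% beside 39.8%. The median log2 change of the list lay within 0.05 of 0 in each comparison, as did that of all genes, and nothing is read from the counts about the pathway as a whole.

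Of the 4 measured genes for ligands and other carriers, IGF1, INS, IGFBP1 and IGFALS, 0 were called in any comparison by limma, and 0 had an unadjusted p under 0.05. IGF1 lay above the 20th percentile on all 15 arrays, at 6.403 to 6.760, and INS on 2. As for the immune markers, lying above it does not by itself show expression of IGF1. IGF2 was not analysed here. Stanniocalcin-2 (STC2), an inhibitor of the PAPPA protease that frees IGF from IGFBP4, averaged 9.73 in ΔNp63α cells, 8.04 in TAp63γ cells and 10.92 in overexpression vector cells. STC2 fell in both, at -1.19 ± 0.081 (adjusted p = 2.66e-08) and -2.88 ± 0.081 (7.36-fold, adjusted p = 5.01e-13), and it also fell with shDBD (-1.52 ± 0.1, adjusted p = 5.07e-08) and shTA (-0.71 ± 0.1, adjusted p = 0.000851). The related STC1 rose with ΔNp63α (0.90 ± 0.11, adjusted p = 1.18e-05), TAp63γ (0.61, adjusted p = 0.000219) and shDBD (0.48, adjusted p = 0.0174), and with shTA it was not called (0.12, adjusted p = 0.788). Of the 8 protease and inhibitor genes, 1 was higher and 1 lower with shDBD, 0 were higher and 1 lower with shTA, 3 were higher and 2 lower with ΔNp63α, and 1 was higher and 2 lower with TAp63γ. In the same order, 21.3%, 2.29%, 28.9% and 43.4% of all genes were called.

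Of the 18 measured receptors and adaptors, 0 were higher and 2 lower with shDBD, 4 higher and 2 lower with ΔNp63α, and 4 higher and 6 lower with TAp63γ. With shTA 0 were called, and 3 were higher and 1 lower at an unadjusted p under 0.05. Among all genes, 21.3% were called with shDBD, 28.9% with ΔNp63α, 43.4% with TAp63γ and 2.29% with shTA. Between the isoforms 8 of the 18 were higher and 2 lower with ΔNp63α, beside 19.2% of all genes higher and 20.6% lower. GRB10, which encodes an adaptor that restrains the insulin and IGF-I receptors, fell with shDBD (-1.001 ± 0.098, adjusted p = 2.34e-06), ΔNp63α (-0.62, adjusted p = 2.59e-05) and TAp63γ (-0.96, adjusted p = 9.41e-08), and was not called with shTA (-0.12, adjusted p = 0.683). The related GRB14 fell with ΔNp63α (-0.31, adjusted p = 0.025) and TAp63γ (-1.33 ± 0.097, adjusted p = 2.05e-08), and was not called with shDBD (-0.30, adjusted p = 0.0918) or shTA (-0.12, adjusted p = 0.752). SHC1, the gene of an adaptor that links the receptors to the RAS pathway, rose with ΔNp63α (0.41, adjusted p = 4.44e-05) and was higher than with TAp63γ (0.55, adjusted p = 1.9e-06). It was not called with shDBD (-0.11, adjusted p = 0.343), shTA (-0.13, adjusted p = 0.448) or TAp63γ (-0.13, adjusted p = 0.0674).

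Of the 14 genes of PI3K, AKT and their phosphatases, 7 were higher and 3 lower with shDBD, where 11.1% of all genes were higher and 10.2% lower. With shTA 1 was higher and 2 lower, and with ΔNp63α 1 higher and 2 lower, where 2.29% and 28.9% of all genes were called. With TAp63γ 6 were higher and 2 lower, where 20.5% of all genes were higher and 22.8% lower. TRIB3, which encodes a pseudokinase that binds AKT, averaged 10.43 in shDBD cells, 11.53 in shTA cells and 12.22 in shRNA vector cells. TRIB3 fell with shDBD (-1.79 ± 0.085, adjusted p = 2.43e-09), shTA (-0.68 ± 0.085, adjusted p = 0.000253), ΔNp63α (-0.74, adjusted p = 8.89e-07) and TAp63γ (-1.92 ± 0.069, adjusted p = 5.63e-12). INPP5D, the gene of the inositol phosphatase SHIP1, fell with shDBD (-0.67, adjusted p = 8.13e-05), shTA (-0.50 ± 0.093, adjusted p = 0.00971) and ΔNp63α (-0.81 ± 0.076, adjusted p = 9.89e-07) and rose with TAp63γ (0.66, adjusted p = 3.43e-06). PIK3R3, a regulatory subunit of PI3K, rose with shDBD (0.68, adjusted p = 5.22e-05), shTA (0.48 ± 0.091, adjusted p = 0.0103) and TAp63γ (0.79, adjusted p = 3.48e-07), and was not called with ΔNp63α (-0.06, adjusted p = 0.64). PTPN1, a tyrosine phosphatase of the insulin receptor, rose with shDBD (0.41, adjusted p = 0.0334), ΔNp63α (0.84 ± 0.1, adjusted p = 1.65e-05) and TAp63γ (0.88, adjusted p = 4.74e-06), and was not called with shTA (0.05, adjusted p = 0.925).

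Of the 17 genes of FOXO factors, mTORC1 and its effectors, 0 were higher and 9 lower with ΔNp63α, with a median of -0.33, where 12.3% of all genes were higher and 16.6% lower. At an unadjusted p under 0.05, 2 of the 17 were higher with ΔNp63α. With TAp63γ 2 were higher and 8 lower, with a median of -0.23, where 20.5% of all genes were higher and 22.8% lower. With shDBD 6 were higher and 1 lower, and with shTA 1 was higher and 0 lower, where 21.3% and 2.29% of all genes were called. EIF4EBP1, the translational repressor that mTORC1 phosphorylates, averaged 9.17 in shDBD cells against 11.25 in shRNA vector cells and fell there (-2.09 ± 0.17, adjusted p = 4.68e-07), with ΔNp63α (-1.49 ± 0.14, adjusted p = 1.05e-06) and with TAp63γ (-1.75 ± 0.14, adjusted p = 6.64e-08). EIF4EBP1 was not called with shTA (-0.16, adjusted p = 0.791) or between the isoforms (0.26, adjusted p = 0.166).

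FOXO1, a transcription factor that AKT keeps out of the nucleus, rose with shDBD (0.999 ± 0.15, adjusted p = 0.000117) and fell with ΔNp63α (-0.47, adjusted p = 0.00716). It was not called with shTA (0.48, adjusted p = 0.116) or TAp63γ (-0.08, adjusted p = 0.625). DEPTOR, an inhibitor of mTOR, rose with shDBD (0.60, adjusted p = 0.000217) and shTA (0.58 ± 0.093, adjusted p = 0.00261) and fell with ΔNp63α (-0.49, adjusted p = 0.000138) and TAp63γ (-0.76, adjusted p = 6.39e-07). DDIT4, the gene of another inhibitor of mTORC1, fell with ΔNp63α (-0.37, adjusted p = 0.000631) and TAp63γ (-1.03, adjusted p = 7.86e-09) and was not called with shDBD (-0.05) or shTA (0.02). RHEB, which encodes an activator of mTORC1, was not called with shDBD (0.08), shTA (0.10), ΔNp63α (0.03) or TAp63γ (-0.13), and was higher with ΔNp63α than with TAp63γ (0.17, adjusted p = 0.038).

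Of the 8 feedback regulators and IGF2 mRNA binding proteins, 1 was higher and 2 lower with ΔNp63α, 2 were higher and 4 lower with TAp63γ, and 4 were higher and 1 lower with ΔNp63α than with TAp63γ. With shDBD and with shTA 0 were called, and at an unadjusted p under 0.05 1 was higher with shDBD, and 1 higher and 1 lower with shTA. The shares of all genes called were 28.9% with ΔNp63α, 43.4% with TAp63γ, 39.8% between the isoforms, 21.3% with shDBD and 2.29% with shTA. MDM2, which encodes a ubiquitin ligase of p53 and of the IGF-I receptor and is a known p53 target, rose with TAp63γ (1.44 ± 0.1, adjusted p = 1.94e-08) and fell with ΔNp63α (-0.52, adjusted p = 0.00133). It was not called with shDBD (0.07, adjusted p = 0.797) or shTA (-0.25, adjusted p = 0.443). SOCS1, a suppressor of cytokine signalling that also acts on IRS proteins, rose with ΔNp63α (0.79 ± 0.099, adjusted p = 1.89e-05) and TAp63γ (0.79, adjusted p = 7.97e-06), and was not called with shDBD (0.24, adjusted p = 0.194) or shTA (-0.16, adjusted p = 0.677).

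The CCN proteins share an N-terminal domain with the IGFBPs. Besides CCN1 to CCN6, the measured genes of this group were ESM1 and KAZALD1, which are not CCN genes. Of these 8 genes, 3 were higher and 0 lower with shDBD, 1 higher and 1 lower with ΔNp63α, and 2 higher and 0 lower with TAp63γ. With shTA 0 were called, and 1 was higher and 2 lower at an unadjusted p under 0.05. Over all genes the called share was 21.3% with shDBD, 28.9% with ΔNp63α, 43.4% with TAp63γ and 2.29% with shTA. CCN5 rose with shDBD (2.01 ± 0.14, adjusted p = 1.04e-07) and was not called with shTA (0.44, adjusted p = 0.132), ΔNp63α (-0.04, adjusted p = 0.837) or TAp63γ (-0.05, adjusted p = 0.747). CCN1 rose with shDBD (0.92, adjusted p = 3.65e-06), ΔNp63α (0.24, adjusted p = 0.0265) and TAp63γ (2.23 ± 0.077, adjusted p = 3.53e-12), and was not called with shTA (-0.35, adjusted p = 0.0641). CCN2 rose with shDBD (0.61, adjusted p = 0.00185) and TAp63γ (0.70, adjusted p = 3.05e-05), fell with ΔNp63α (-0.52, adjusted p = 0.00103) and was not called with shTA (-0.45, adjusted p = 0.0727). CCN1 and CCN2 were both higher with shDBD than with shTA (1.27 and 1.07) and lower with ΔNp63α than with TAp63γ (-1.98 and -1.22).

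Between the hairpins, EIF4EBP1 (-1.93), TRIB3 (-1.10) and GRB10 (-0.88) were lower and CCN5 (1.57) higher with shDBD than with shTA, while SHC1 (0.03) and DDIT4 (-0.07) were not called. Between the isoforms, STC2 (1.69) and TRIB3 (1.18) were higher and MDM2 (-1.95) and INPP5D (-1.46) lower with ΔNp63α than with TAp63γ. CAV1, the caveolin-1 gene, was not called between the isoforms (0.03), rose with both against the vector (0.38 with ΔNp63α and 0.35 with TAp63γ), fell with shDBD (-0.63) and was not called with shTA (0.14). PTPN11, which encodes the phosphatase SHP2, fell with TAp63γ (-0.87, adjusted p = 1.87e-05) and was not called with ΔNp63α (-0.30, adjusted p = 0.0713), shDBD (-0.37, adjusted p = 0.0906) or shTA (0.18, adjusted p = 0.688).

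**Figure D4:**
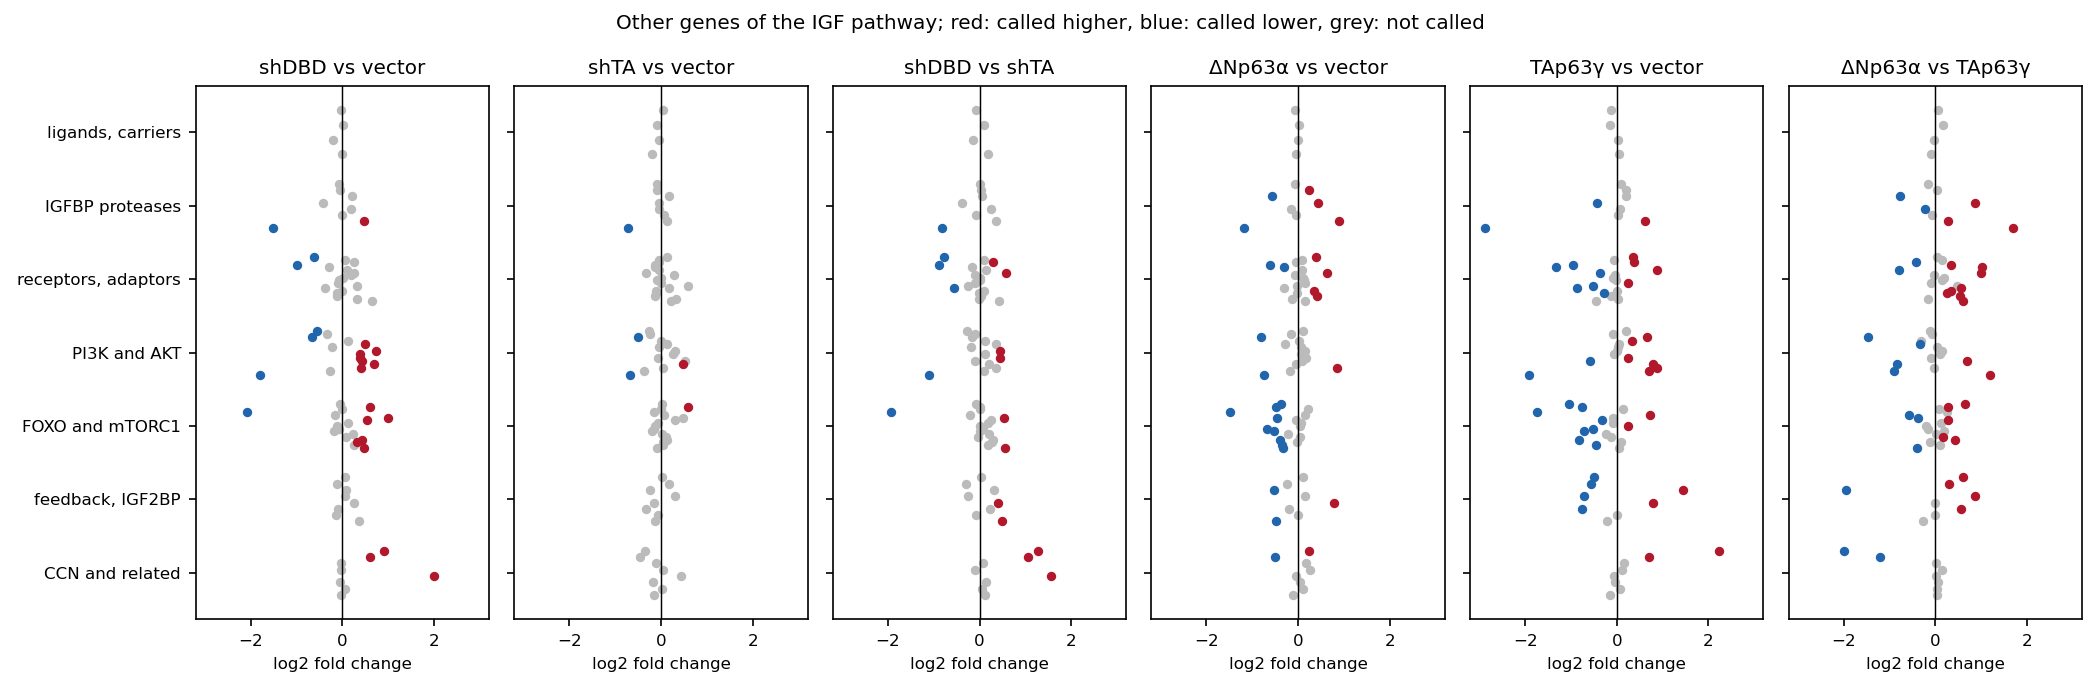
Log2 fold change of the 77 further IGF pathway genes in the 6 comparisons, one point a gene, grouped by role down the page; red points were called higher, blue lower and grey not called. None of the ligands and carriers is coloured in these comparisons, and the FOXO and mTORC1 genes called with ΔNp63α all lie left of 0.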

How the data were processed

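Total RNA of 15 MCF-10A cultures was hybridised to Affymetrix arrays. The authors deposited 1 value table, whose log2 values were made by RMA, per the submitters' processing notes; its version, its background settings and the arrays normalised in 1 run are not stated there. Of 22277 probe sets, 62 were array controls, 19064 had 1 symbol, 1043 had several and 2108 had none or were not listed. By Entrez ID 19052 were matched, and 0 symbols changed.

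The single-symbol probe set with the highest mean stood for each of 11963 genes, with no filter on low values. Means of the 6 groups were fitted in 1 model with limma 3.58.1 in R 4.3.3 (lmFit, eBayes with a variance trend; 9 residual and 5.87 prior degrees of freedom), and p-values were adjusted by Benjamini-Hochberg within each of 6 comparisons. The procedure was run on simulated data in which arrays varied independently. Deviations shared across groups, as seen in the overexpression arm, were not simulated, so that run does not show the error rate under them. Intervals are 95%.

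Of the pathway list, the genes named in a comparison are up to 6 called genes of largest change whose groups do not overlap and up to 2 uncalled genes of highest level, and for each of the 10 genes the 3 with the highest correlation. A pathway gene named in 1 comparison is given in all comparisons against a vector. The 10 genes and all lists were chosen with earlier results of these data known. Promoter sequences are those of RefSeq (GRCh38.p14), cut to the 250 bases before each start. Alternatives changed the normalisation, low-value handling, variance model, probe set rule, arms fitted, replicate block and arrays included.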

Additional observations from a re-analysis of the deposited data

How the results depend on the processing

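Each result was recomputed under 24 alternatives, 15 of which left out 1 array. Of the 27 called values of the 10 genes, 18 kept their call and direction under every alternative; over all 648 alternative values of called genes, 47 lost the call, 39 of them with 1 array left out, and 0 reversed.

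The number of the 10 genes called ranged, with 1 array left out, over 2 to 4 for shDBD, 0 to 2 for shTA, 1 to 4 between the hairpins, 5 to 7 for ΔNp63α, 5 to 6 for TAp63γ and 5 to 7 between the isoforms. Of the 77 pathway genes the same ranges were 15 to 27, 2 to 9, 12 to 20, 23 to 29, 35 to 40 and 30 to 36, and of all genes 1650 to 2968, 87 to 472, 1348 to 2588, 2880 to 3574, 4674 to 5515 and 4069 to 4857. Where a group was left with 1 array, that array was assumed to vary like the others.

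For shTA against the vector the count of the 10 genes was 1, in place of 2, with the mean over probe sets, and the pathway count was 16 with the arms fitted separately, 8 with quantile normalisation and 9 with the mean over probe sets, in place of 5. The count of all genes was 1064 with the arms fitted separately, in place of 274. Between the hairpins, fitting the arms separately gave 26 pathway genes in place of 17 and 3359 genes in place of 2197. The cause was not tested.

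Pairing by replicate number was looked at on each array's deviations from its group mean. Between groups, deviations of same-numbered arrays correlated at 0.0014 to 0.069 in the knockdown arm and -0.63 to 0.48 in the overexpression arm. With 2 arrays per knockdown group, differently numbered arrays there have the same values with opposite sign. In the overexpression arm differently numbered arrays ran from -0.725 to 0.675, so some deviations were shared across groups, whatever the number. The main fit takes arrays as independent, and the cause was not tested. With the replicate number as a block, shTA had 1 of the 10 genes and 150 genes in all called, and IGFBP6 with shDBD (adjusted p = 0.0587), IGFBP7 with shTA (0.0985) and IRS2 between the hairpins (0.07) lost their calls.

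Other calls lost were IGFBP7 with shTA by the mean over probe sets (adjusted p = 0.051) and IGFBP7 between the isoforms by cyclic loess (0.102). Calls gained were IRS2 with shDBD (arms fitted separately, 0.00796; mean over probe sets, 0.038), IGFBP6 between the hairpins (arms fitted separately, 0.0296), IGFBP7 with ΔNp63α (quantile, 0.0358; cyclic loess, 0.0276) and IRS2 between the isoforms (mean over probe sets, 0.0261). With 1 array left out, calls gained were IRS2 with TAp63γ without overexpression vector replicate 2, ΔNp63α replicate 2 or 3, or TAp63γ replicate 2 (0.0204 to 0.0309), IGFBP7 with ΔNp63α without ΔNp63α replicate 2 (0.0313) and IRS2 between the isoforms without ΔNp63α replicate 3 (0.0213).

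Of 792 alternative values of uncalled genes, 13 changed sign, none past the threshold. With 1 array left out, values ranged for IGFBP5 over -0.210 to 0.188 between the hairpins (highest without shDBD replicate 2), -0.112 to 0.027 between the isoforms (highest without TAp63γ replicate 2), -0.328 to 0.070 with shDBD (highest without shDBD replicate 2) and -0.131 to 0.0080 with TAp63γ (highest without TAp63γ replicate 3). For IGFBP4 they ranged over -0.172 to 0.029 with shDBD (highest without shDBD replicate 2) and -0.053 to 0.174 with shTA (lowest without shTA replicate 2). With shTA they ranged over -0.064 to 0.087 for IGF1R (below 0 also without shTA replicate 2, at -0.012), -0.296 to 0.030 for IGF2R and -0.012 to 0.191 for IRS1. Quantile normalisation gave IGFBP5 0.0055 between the hairpins, and the mean over probe sets gave IGFBP5 0.047 between the isoforms and IGF1R -0.014 with shTA.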
